A study of Mus musculus with 8 samples.

Results

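The Gadd45 family of the mouse has 3 members, Gadd45a, Gadd45b and Gadd45g, and all 3 were looked up by gene symbol among the 34472 probe sets of the array. Gadd45g was read by probe set 17287361 and Gadd45b by probe set 17235511, each annotated to that gene alone. No probe set is annotated to Gadd45a alone. Probe set 17467316 names it together with the non-coding transcript E230016M11Rik, and its values are given for that shared probe set throughout. The table tested had 22181 rows, 22180 of them for single genes and 1 for the shared probe set. No filter on low values was applied.

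Gadd45 proteins are small acidic nuclear proteins without enzymatic activity of their own. They act by binding partners: the kinase Map3k4, through which they switch on p38 and JNK signalling, the replication clamp Pcna, the cell cycle kinase Cdk1 and its inhibitor Cdkn1a, and repair and deaminase enzymes in active DNA demethylation. In neurons Gadd45b is known as an activity-induced gene required for demethylation at growth factor genes in the adult hippocampus, Gadd45a is the classical p53 target of the family, and Gadd45g is known for roles in neuronal differentiation.

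The cells were primary hippocampal neurons of C57BL/6J mice, dissected late in gestation, at E18.5, and kept for 11 days in vitro in medium with AraC, which kills dividing cells. There were 4 untreated cultures and 4 cultures held in 55 mM KCl for 4 h before RNA isolation; raised potassium depolarises the membrane and lets calcium in. Each array carried its own mouse number, both groups were numbered 1 to 4, and the labels name no genetic alteration in either group. The series title asks how neuronal activity, among other stimuli, affects transcription of the Gadd45 family; only the KCl comparison was measured on these arrays.

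The mean log2 value over 8 neuronal markers was 9.18 to 9.91 in untreated and 9.26 to 10.0 in KCl arrays, with Snap25 at 12.34 and Map2 at 11.67 in untreated cultures. Astrocyte transcripts were measured as well, with Gfap at 10.78 in untreated cultures and a mean over 5 markers of 8.38 to 9.15 and 8.51 to 8.99. The means of the other marker lists in untreated and KCl arrays were 4.24 to 4.34 and 4.12 to 4.35 for 5 microglial genes, 4.45 to 4.63 and 4.38 to 4.79 for 5 oligodendrocyte lineage genes, 4.16 to 4.44 and 4.27 to 4.42 for 6 vascular and fibroblast genes, and 4.86 to 5.67 and 4.93 to 6.15 for 5 genes of cycling cells. No marker of these 6 lists passed the test across all genes, which called 2.36% of all rows in either direction. Of the markers, 2 had an unadjusted limma p under 0.05, Gad1 and Cdk1, where 13.0% of all rows did. With the replicate number as a block, the GABA-synthesis enzyme Gad2 fell (log2 change -0.49, adjusted p = 0.0458), and without both arrays numbered 1 Cdk1 passed (adjusted p = 0.0253). In RNA from whole cultures, a larger number of cells of a type and more RNA per cell cannot be told apart. Both arrays numbered 1 stood apart from the other 6 along the first principal component (36.6% of the variance, scores of 43.2 and 48.6 against -26.6 to 4.6), and some results below are also given without them.

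The 250 bases before the transcription start of the 3 members are printed because Gadd45b and Gadd45g rose together after KCl while the shared probe set of Gadd45a did not pass the test. The sequences are from RefSeq, build GRCm38.p6, written along the gene, and the last base lies next to the start. Capitals mark matches to the E-box CACGTG, the CCAAT box CCAAT, the octamer ATTTGCAT, the TATA box TATAAA and the EGR motif GCGNGGGCG, each searched on both strands.
Gadd45g, chr13:51846425-51846674, plus strand: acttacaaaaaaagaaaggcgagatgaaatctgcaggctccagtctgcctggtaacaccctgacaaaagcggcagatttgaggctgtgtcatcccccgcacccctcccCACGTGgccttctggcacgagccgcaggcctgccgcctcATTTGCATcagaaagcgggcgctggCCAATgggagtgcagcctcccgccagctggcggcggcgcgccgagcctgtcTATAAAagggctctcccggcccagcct
Gadd45b, chr10:80929841-80930090, plus strand: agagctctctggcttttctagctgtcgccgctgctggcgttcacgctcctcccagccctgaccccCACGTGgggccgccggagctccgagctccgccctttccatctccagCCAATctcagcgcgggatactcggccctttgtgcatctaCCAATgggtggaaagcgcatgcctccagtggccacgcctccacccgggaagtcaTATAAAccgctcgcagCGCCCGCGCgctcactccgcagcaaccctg
Gadd45a, chr6:67037408-67037657, minus strand: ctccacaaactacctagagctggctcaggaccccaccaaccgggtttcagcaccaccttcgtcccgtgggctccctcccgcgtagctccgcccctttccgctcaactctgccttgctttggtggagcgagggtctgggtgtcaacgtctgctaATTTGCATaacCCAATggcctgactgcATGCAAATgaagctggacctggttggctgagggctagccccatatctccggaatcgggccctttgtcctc

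The windows of Gadd45g and Gadd45b each hold a single E-box, 142 to 137 and 185 to 180 bases before the start, and that of Gadd45a holds none. The E-box letters occur in 6.02% of all 32851 RefSeq windows of the same length. A TATA box lies 27 to 22 bases before the start of Gadd45g and 46 to 41 bases before that of Gadd45b, and no TATAAA is in the window of Gadd45a; 12.4% of all windows hold it. The octamer is shared by another pair, Gadd45a with a match on each strand and Gadd45g with 1 match, against 1.60% of all windows. CCAAT is in all 3 windows, as in 33.8% of all, and the EGR letters are in the window of Gadd45b alone of the 3 (4.70% of all).

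Letters known from other activity genes were searched too. The full cAMP response element TGACGTCA (1.55% of all windows), its shorter core TGACG (17.8%), the AP-1 motif TGANTCA (6.75%), the NF-kB motif (1.41%) and the FOXO motif TGTTTAC (3.17%) were in none of the 3 windows, which says only that these letters are absent from these 250 bases. The short SMAD motif GTCTG, which 42.2% of all windows hold, was in those of Gadd45a and Gadd45g. The GC box GGGCGG (32.7%) was in those of Gadd45a and Gadd45b. Gadd45b and Gadd45g thus share the E-box and TATA letters, Gadd45a and Gadd45g the octamer and SMAD letters, and Gadd45a and Gadd45b the GC box. Each is also found in other promoters at the shares given, and a link of any of them to the rise after KCl was not tested.

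Gadd45g rose most in the family. Its log2 values were 6.39, 5.73, 4.95 and 5.13 in untreated replicates 1 to 4 and 9.23, 8.91, 8.65 and 8.65 in KCl replicates 1 to 4. The groups did not overlap, with 2.26 log2 units between the highest untreated and the lowest KCl array, and the KCl arrays lay closer together than the untreated ones. The means were 5.55 ± 0.651 and 8.86 ± 0.277 (SD, n = 4 each), a log2 change of 3.31 (SE 0.305) or 9.92-fold, with a 95% interval of 6.12- to 16.1-fold and an adjusted p of 0.00201 (limma, Benjamini-Hochberg over 22181 rows). The same test called 1.34% of all rows higher and 1.02% lower, and by log2 change Gadd45g ranked 7 among them. It passed in all 8 fits that left out an array (adjusted p 0.000615 to 0.0113).

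Gadd45b also rose. Untreated replicates 1 to 4 stood at 7.54, 6.21, 5.95 and 6.12, and KCl replicates 1 to 4 at 9.40, 8.59, 8.83 and 8.08. Untreated replicate 1 was well above the other 3 untreated arrays, yet still below the lowest KCl array, by 0.54 log2 units. The means were 6.46 ± 0.73 and 8.72 ± 0.549 (SD, n = 4 each), a log2 change of 2.27 (SE 0.39) or 4.81-fold, with a 95% interval of 2.6- to 8.91-fold and an adjusted p of 0.0238 (limma). By log2 change it ranked 29. The call was lost in 5 of 8 fits with an array left out (adjusted p up to 0.078), which left out untreated replicate 2, 3 or 4 or KCl replicate 2 or 3, although the log2 change stayed between 2.04 and 2.63 over all 8; without both arrays numbered 1 it was 2.40 (adjusted p = 0.00416), in a fit that called 2.10% of all rows.

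The shared probe set of Gadd45a did not pass the test. It stood at 5.68, 6.28, 5.96 and 5.88 in untreated replicates 1 to 4 and at 5.95, 6.29, 6.14 and 6.56 in KCl replicates 1 to 4. The groups overlapped, and replicate 2 had almost the same value in both. The means were 5.95 ± 0.248 and 6.23 ± 0.259 (SD, n = 4 each), a log2 change of 0.28 (SE 0.166, adjusted p = 0.578 with limma), and the 95% interval of 0.936- to 1.58-fold does not reach the lower bound of Gadd45b. In the fits that left out an array, the adjusted p was 0.393 to 0.84.

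**Figure D1:**
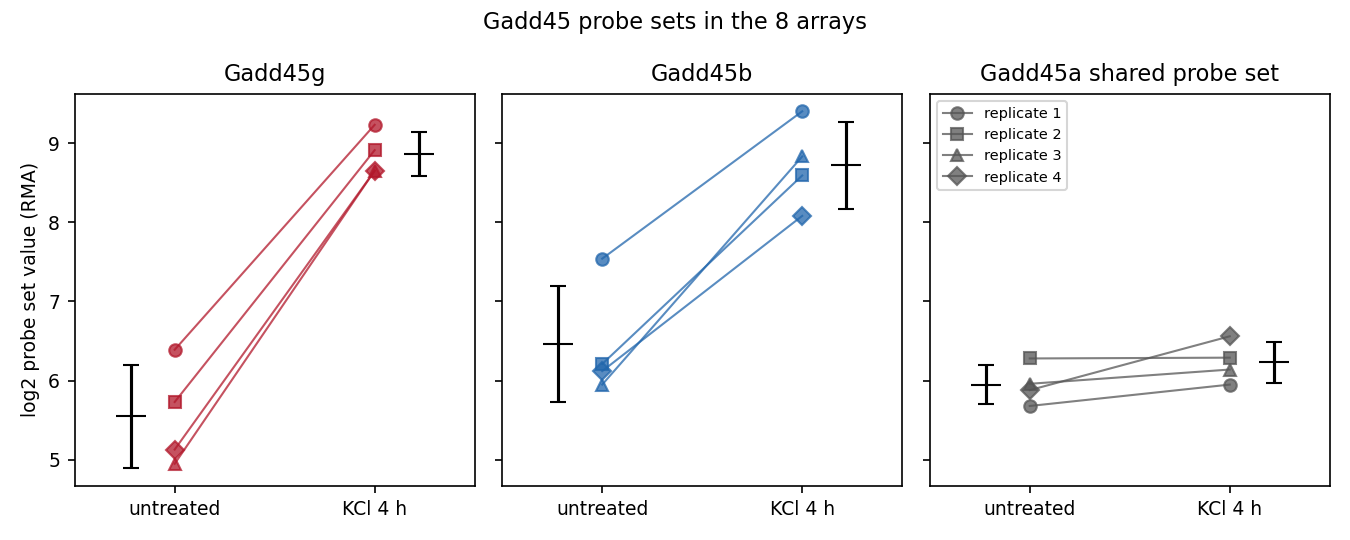
Log2 values of the Gadd45g, Gadd45b and shared Gadd45a probe sets (vertical axis, RMA log2 units) in untreated and KCl arrays; lines join arrays of the same replicate number, and black bars show the mean and SD of 4 arrays. Gadd45g goes from 4.95 to 6.39 up to 8.65 to 9.23, Gadd45b from 5.95 to 7.54 up to 8.08 to 9.40, and the shared probe set lies between 5.68 and 6.56 in both groups.

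E230016M11Rik, the other transcript named by the shared probe set, also has a probe set of its own, 17459260. It was looked up for that reason, outside the rule for named genes. In RefSeq the transcript overlaps Gadd45a on the opposite strand. Its values were 4.61, 5.73, 4.81 and 4.65 in untreated and 5.42, 4.88, 5.36 and 5.07 in KCl replicates 1 to 4. The groups overlapped and replicate 2 was lower after KCl, unlike the other 3. The log2 change was 0.23 (SE 0.256, limma adjusted p = 0.849). Neither probe set that names this locus passed. The strand read by the shared probe set was not checked, and signal of the 2 genes in it was not told apart.

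Replicate by replicate, each of the 3 probe sets had the higher value after KCl in 4 pairs of 4, as did 11.0% of all rows. The ratio of KCl to untreated was 7.17, 9.06, 12.9 and 11.5 for Gadd45g in pairs 1 to 4. For Gadd45b it was 3.63, 5.2, 7.34 and 3.88. For the shared probe set it was 1.20, 1.01, 1.13 and 1.61. In both Gadd45g and Gadd45b, pair 1 had the smallest ratio and pair 3 the largest, whereas the shared probe set had its largest in pair 4. With the replicate number as a block, the SE fell to 0.155 for Gadd45g, 0.179 for Gadd45b and 0.131 for the shared probe set, and the limma adjusted p was 0.000879, 0.00297 and 0.329; the share of all rows called with that block was 4.44%, against 2.36% without it.

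For single probe sets, the exact permutation test over all 70 assignments of the arrays, two-sided, gave p = 0.0286 for Gadd45g and for Gadd45b, the smallest this design allows, and 0.20 for the shared probe set. The KCl arrays lay entirely above the untreated ones for 3.83% of all rows, Gadd45g and Gadd45b among them. The exact sign-flip test over the 4 pairs cannot go below 0.125, and each of the 3 probe sets reached that value.

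**Figure D2:**
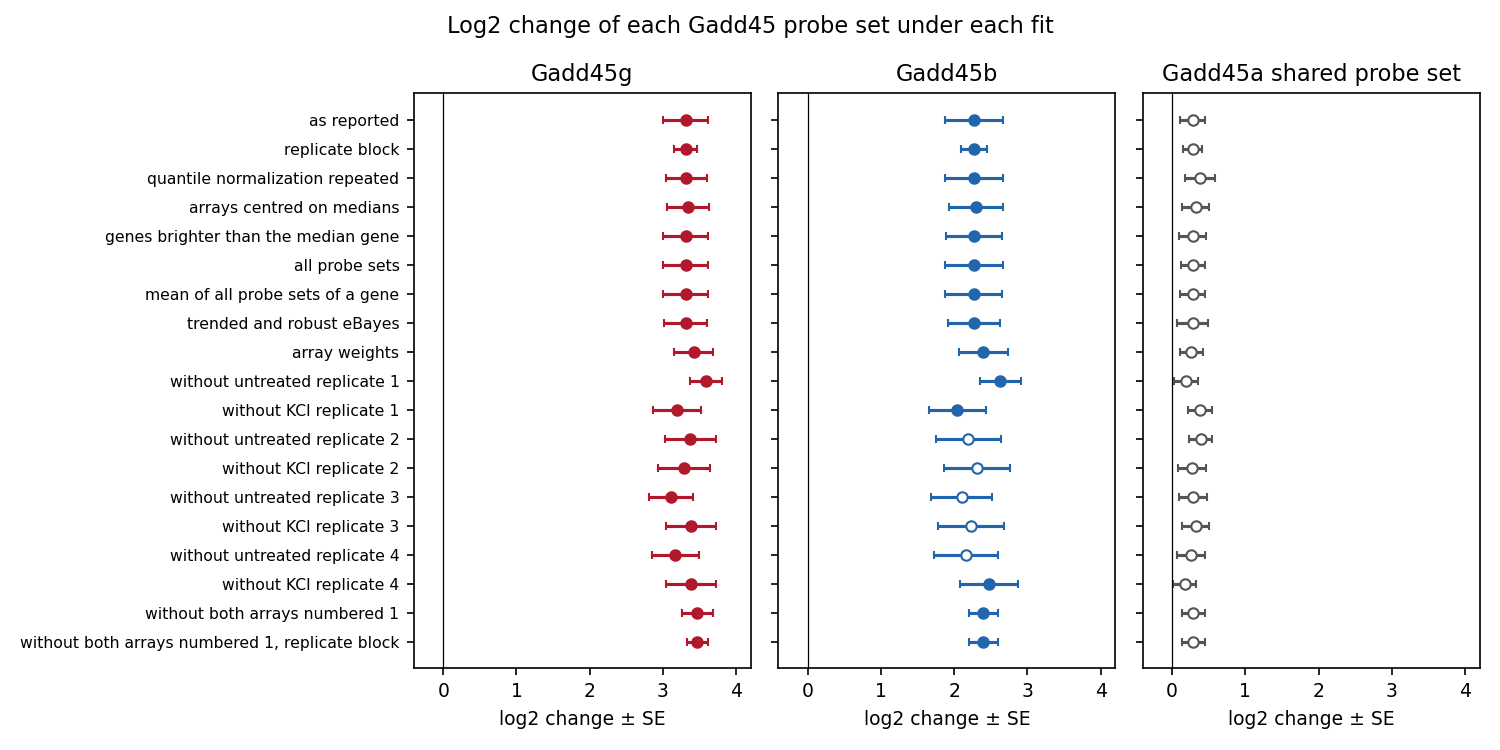
Log2 change with its SE (horizontal axis) of each Gadd45 probe set in the reported limma fit and in 18 alternative fits (vertical axis); filled points passed an adjusted p of 0.05, open points did not. Gadd45g is filled in every fit shown, Gadd45b is open in 5 fits that leave out an array, and the shared probe set is open throughout.

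The measured changes of the 3 probe sets were compared between members. Within each array the value of Gadd45b was subtracted from that of Gadd45g; the difference averaged -0.91 ± 0.296 without KCl and 0.14 ± 0.375 with it (SD over 4 arrays each). Gadd45g thus rose by 1.04 log2 units more than Gadd45b, a 2.06-fold larger ratio (95% interval 0.46 to 1.63 log2 units), and by more in 4 of 4 pairs (0.98, 0.80, 0.82 and 1.57). Its exact two-sided permutation p, adjusted over the 3 pairs of members, was 0.0429, and it was 0.0857 without KCl replicate 2 and 0.0571 without KCl replicate 4. Without both arrays numbered 1 the difference was 1.06, with an exact p of 0.10, the smallest for 3 arrays against 3, and the exact sign-flip test over the 4 pairs gave its smallest p, 0.125.

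Gadd45g also rose by 3.03 log2 units more than the shared probe set (95% interval 1.92 to 4.14, exact permutation p adjusted over the 3 pairs of members = 0.0429). The difference was 3.03 without KCl replicate 2 (exact adjusted p = 0.0857) and 3.21 without KCl replicate 4 (0.0571). The exact test has few assignments, so this adjusted p moves in large steps and also depends on the p of the other pairs of members. For Gadd45b against the shared probe set the difference was 1.98 (95% interval 0.50 to 3.47, exact adjusted p = 0.0571), which missed the threshold with all arrays and passed without untreated replicate 1 (exact p = 0.0286). The sign of each of these 2 differences was the same in 4 of 4 pairs. Probe sets differ in their response to the same amount of RNA, so these are differences between measured changes and not between transcript numbers.

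**Figure D3:**
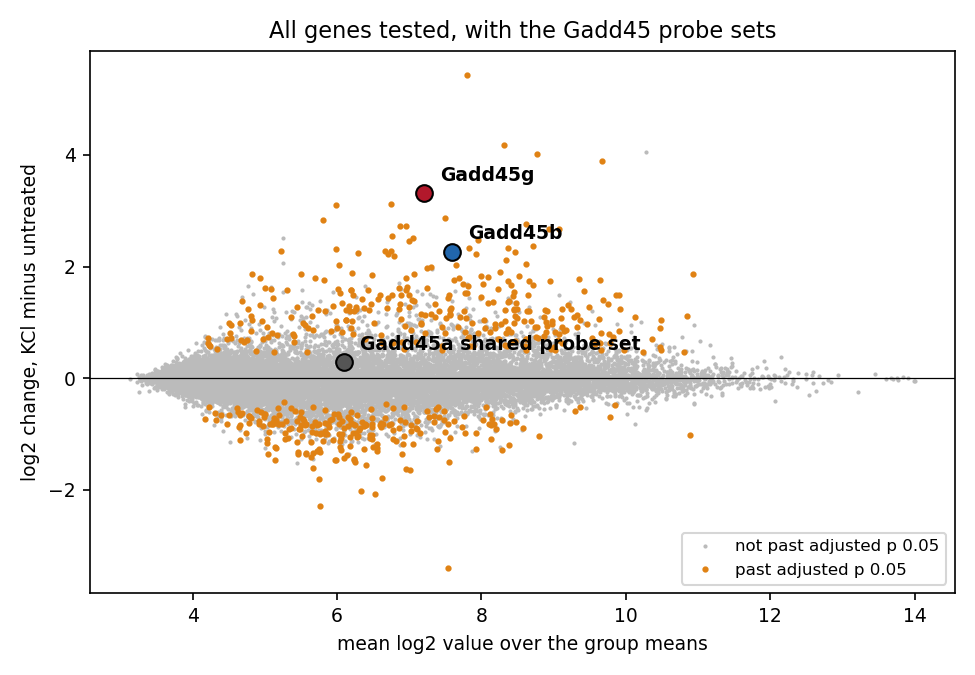
Log2 change after KCl (vertical axis) against the mean log2 value (horizontal axis) for 22181 rows, with those past an adjusted p of 0.05 in orange and the 3 Gadd45 probe sets named. Gadd45g at 3.31 and Gadd45b at 2.27 lie near the top of the cloud, and the shared Gadd45a probe set at 0.28 lies within it.

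The arrays numbered 1 were the highest of their group for both Gadd45g and Gadd45b, in untreated and in KCl cultures, and the lowest of their group for the shared probe set. In untreated cultures, replicate 3 was the lowest for both. Of 7 textbook activity genes, 5, among them Npas4, were highest in untreated replicate 1 and 5 were lowest in untreated replicate 3, with means over the 7 of 7.42, 6.52, 5.59 and 6.68 in untreated replicates 1 to 4. In KCl arrays these means were 9.85, 9.67, 9.93 and 10.11, and replicate 1 was highest for 1 of the 7. KCl replicate 2 was lowest for 5 of the 7 and highest for 2. In each group replicate 1 also had the lowest neuronal marker mean (9.18 untreated, 9.26 KCl) and the highest astrocyte marker mean (9.15 and 8.99). The part of either in the Gadd45 values was not tested. After the group means were taken out, the residual SD of Gadd45b was larger than that of 96.2% of all rows, that of Gadd45g larger than 91.9% and that of the shared probe set larger than 62.2%.

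The 7 activity genes were measured in the same arrays to set the family beside them. The only contrast is KCl against untreated cultures, so depolarisation cannot be told apart from other effects of the KCl treatment. The labels give no handling time for the untreated cultures. Of the 7, 4 rose, none fell and 3 did not pass (limma), where 1.34% of all rows were called higher and 1.02% lower. Their median log2 change was 4.02 against -0.011 over all rows. All 7 had an unadjusted limma p under 0.05, as did 13.0% of all rows. The AP-1 genes Fosb, Fos and Junb rose 43.0-, 18.2- and 7.29-fold and the nuclear receptor Nr4a1 16.2-fold, and each passed in all 8 fits with an array left out. Npas4, a factor found in neurons, differed by 4.05 log2 units (adjusted p = 0.0517, 0.0324 with the replicate block and 0.0212 without both arrays numbered 1), the synaptic gene Arc 1.56 (0.0915) and the zinc finger factor Egr1 1.26 (0.213). The ratio of Gadd45g lay between those of Junb and Nr4a1, and that of Gadd45b below Junb.

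The genes nearest in pattern to Gadd45g and Gadd45b were found as follows. Each profile was centred on its own mean over the 8 arrays, and likeness was the root-mean-square difference between profiles over 19233 genes compared, leaving out predicted and clone names. The 5 nearest to Gadd45g were Nfil3, a leucine zipper repressor (0.377 log2 units), the zinc finger factor Klf4 (0.476), Nr4a1 (0.477), Junb (0.479) and the stress-response factor Atf3 (0.496). Their ratios of KCl to untreated were 10.2, 8.58, 16.2, 7.29 and 8.73, which the choice by likeness keeps near the 9.92 of Gadd45g. Gadd45b was at rank 10, at 0.598.

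The 5 genes nearest to Gadd45b were other genes: the unconventional myosin Myo1e (0.353), the small GTPase Gem (0.389), the early gene Ier2 (0.396), Tob2 of the antiproliferative Tob and Btg family (0.404) and the microRNA gene Mir1938 (0.429). Their ratios, likewise set by the choice, were 3.39, 3.87, 4.09, 3.39 and 3.69, with limma adjusted p of 0.0408, 0.143, 0.0142, 0.0225 and 0.00404 in the same order, so that Gem did not pass the test. Gem, like Gadd45b, was highest in replicate 1 of both groups, with 7.72, 6.21, 5.59 and 5.81 in untreated replicates 1 to 4 and 9.49, 8.46, 7.77 and 7.42 in KCl replicates 1 to 4. So were Myo1e, Tob2 and Mir1938, while Ier2 was highest in replicate 1 of the untreated group only. The choice by likeness favours such genes. Gadd45g was at rank 36 from Gadd45b. Pearson's r over the 8 arrays was 0.958 to 0.989 for the 5 genes near Gadd45g, 0.953 to 0.976 for those near Gadd45b and 0.964 between Gadd45b and Gadd45g, which describes arrays that fall into 2 treatment groups. Ranked by r instead, 1 of the 5 nearest to Gadd45g and 0 of the 5 nearest to Gadd45b would be named again, so the short lists depend on the measure; on differences within pairs 4 and 1 would. By r the 5 nearest to Gadd45g were Epb41l5, Aff1, Nr4a1, Cplx3 and Slc38a2.

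**Figure D4:**
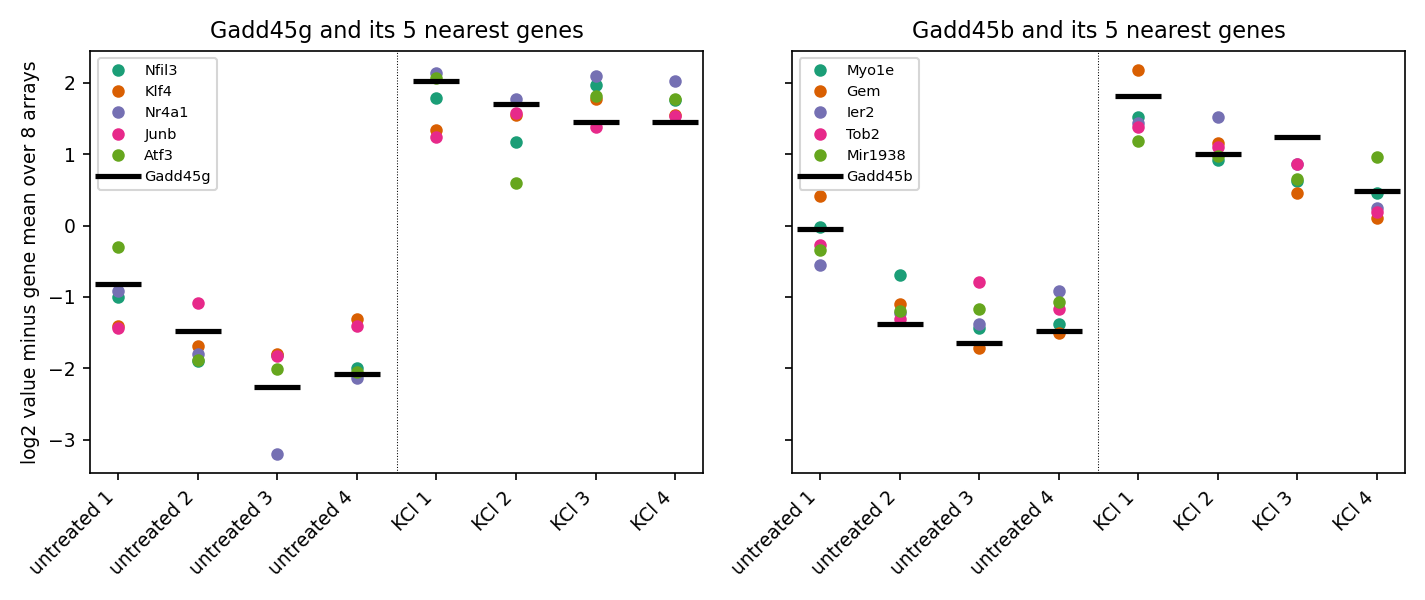
Log2 values of Gadd45g (left, black bars) and Gadd45b (right, black bars) with their 5 nearest genes (coloured points), each minus the gene's own mean over the 8 arrays (vertical axis), by array (horizontal axis). The black bars of both genes are highest in replicate 1 of each group, and the points lie around them, with root-mean-square differences of 0.353 to 0.496.

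Of the other genes named for growth arrest and DNA damage, Ppp1r15a (GADD34), the phosphatase subunit that restores translation after stress, rose 2.82-fold. Its values were 6.28, 5.78, 5.61 and 5.74 in untreated and 7.81, 6.95, 7.45 and 7.18 in KCl replicates 1 to 4. The groups did not overlap, and untreated replicate 1 was again the highest of its group. It passed in all 8 fits with an array left out (limma adjusted p = 0.0119 with all arrays). Ddit3 (GADD153, CHOP), the stress-induced C/EBP factor, averaged 6.10 ± 0.157 before and 6.10 ± 0.38 after KCl (SD, n = 4 each; adjusted p = 0.999). Of the 2 namesakes outside the family, 1 rose and 1 did not pass, where 2.36% of all rows were called in either direction.

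Partners through which Gadd45 proteins act were measured at the RNA level. Of 16 listed kinases and cell cycle partners, 14 had a probe set of their own; 1 rose, none fell and 13 did not pass, with a median log2 change of 0.01, where 2.36% of all rows were called in either direction. The gene that rose was Pcna, which binds Gadd45 proteins at replication and repair sites, with 8.97, 9.42, 9.40 and 9.23 in untreated and 9.86, 10.07, 10.24 and 10.08 in KCl replicates 1 to 4 (1.75-fold, limma adjusted p = 0.0191). Its groups did not overlap, but 4 fits lost its call, those leaving out untreated replicate 4 or KCl replicate 2, 3 or 4 (adjusted p up to 0.0667). The limma adjusted p of Pcna was 0.0109 with the replicate block and 0.0217 without both arrays numbered 1. Cdk1 had a log2 change of 0.67 (adjusted p = 0.176, but 0.0253 without both arrays numbered 1) and the p38 activator Map2k3 of -0.31 (0.596). Chosen after their values were seen, the direct partner kinase Map3k4 stood at 0.15 (0.917) and the p38α gene Mapk14 at -0.02 (0.994). Gadd45gip1, which encodes a binding protein of the family and was chosen in the same way, stood at -0.08 (0.905).

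None of 17 measured demethylation and excision repair partners, of 19 listed, passed with all arrays (limma, median log2 change -0.07), where 2.36% of all rows were called in either direction. Of the 17, 5 had an unadjusted p under 0.05, against 13.0% of all rows. The glycosylase Mbd4 had a log2 change of 0.49 (adjusted p = 0.13), the nuclease subunit Ercc4 -0.71 (0.132) and the 5-methylcytosine oxidase Tet2 0.52 (0.158). Without KCl replicate 2 Ercc4 passed (adjusted p = 0.0401), and without both arrays numbered 1 a member named after its values were seen, the transcription factor subunit Taf12, passed as lower (0.0317). The growth factor genes Bdnf and Fgf1, at which Gadd45b is known to act in the adult hippocampus, did not pass either (1 of the 2 had an unadjusted limma p under 0.05). Bdnf stood at 6.88, 6.06, 5.93 and 6.13 in untreated and at 7.55, 6.21, 7.77 and 8.15 in KCl replicates 1 to 4 (adjusted p = 0.235), and Fgf1 averaged 4.91 ± 0.37 untreated and 5.07 ± 0.256 after KCl (SD, n = 4 each; adjusted p = 0.871). KCl replicate 2 was the array in which Bdnf stayed within the untreated range, and without it Bdnf passed (0.0328).

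Factors known to act on Gadd45 transcription came next. Of 12 measured upstream regulators, of 15 listed, none passed with all arrays (limma; median log2 change 0.22), and 5 had an unadjusted p under 0.05, against 2.36% of all rows called and 13.0% with an unadjusted p under 0.05. Beside Npas4, the stress factor Atf4 had a log2 change of 0.88 (adjusted p = 0.105) and the CREB coactivator Crtc1 of -0.42 (0.197). With the replicate block 2 passed as higher, Npas4 and Atf4 (0.0324 and 0.0228). Among 12 measured p53 targets, of 13 listed, 1 rose, none fell and 11 did not pass, with a median of 0.20, against 1.34% of all rows called higher and 1.02% lower. Btg2, an antiproliferative mRNA decay factor, rose 3.22-fold (adjusted p = 0.0438, 0.0191 with the replicate block and 0.00893 without both arrays numbered 1). That call held without untreated replicate 1 and was lost without any other single array (adjusted p up to 0.123). The Polo-like kinase gene Plk2 stood at 0.95 (0.116, but 0.0139 with the replicate block and 0.0421 without both arrays numbered 1) and the stress sensor Sesn2 at 0.87 (0.282).

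The title also names TGFβ signalling, which the labels do not name as a treatment of these cultures. None of 9 measured ligands, receptors and SMADs passed (limma, median log2 change 0.27), where 2.36% of all rows were called in either direction. Of the 9, 1 had an unadjusted p under 0.05, a share near the 13.0% of all rows. The inhibitory Smad7 had a log2 change of 0.63 (adjusted p = 0.212). The signal transducer Smad3 stood at 0.29 (0.593) and the receptor Tgfbr1 at 0.27 (0.675).

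**Figure D5:**
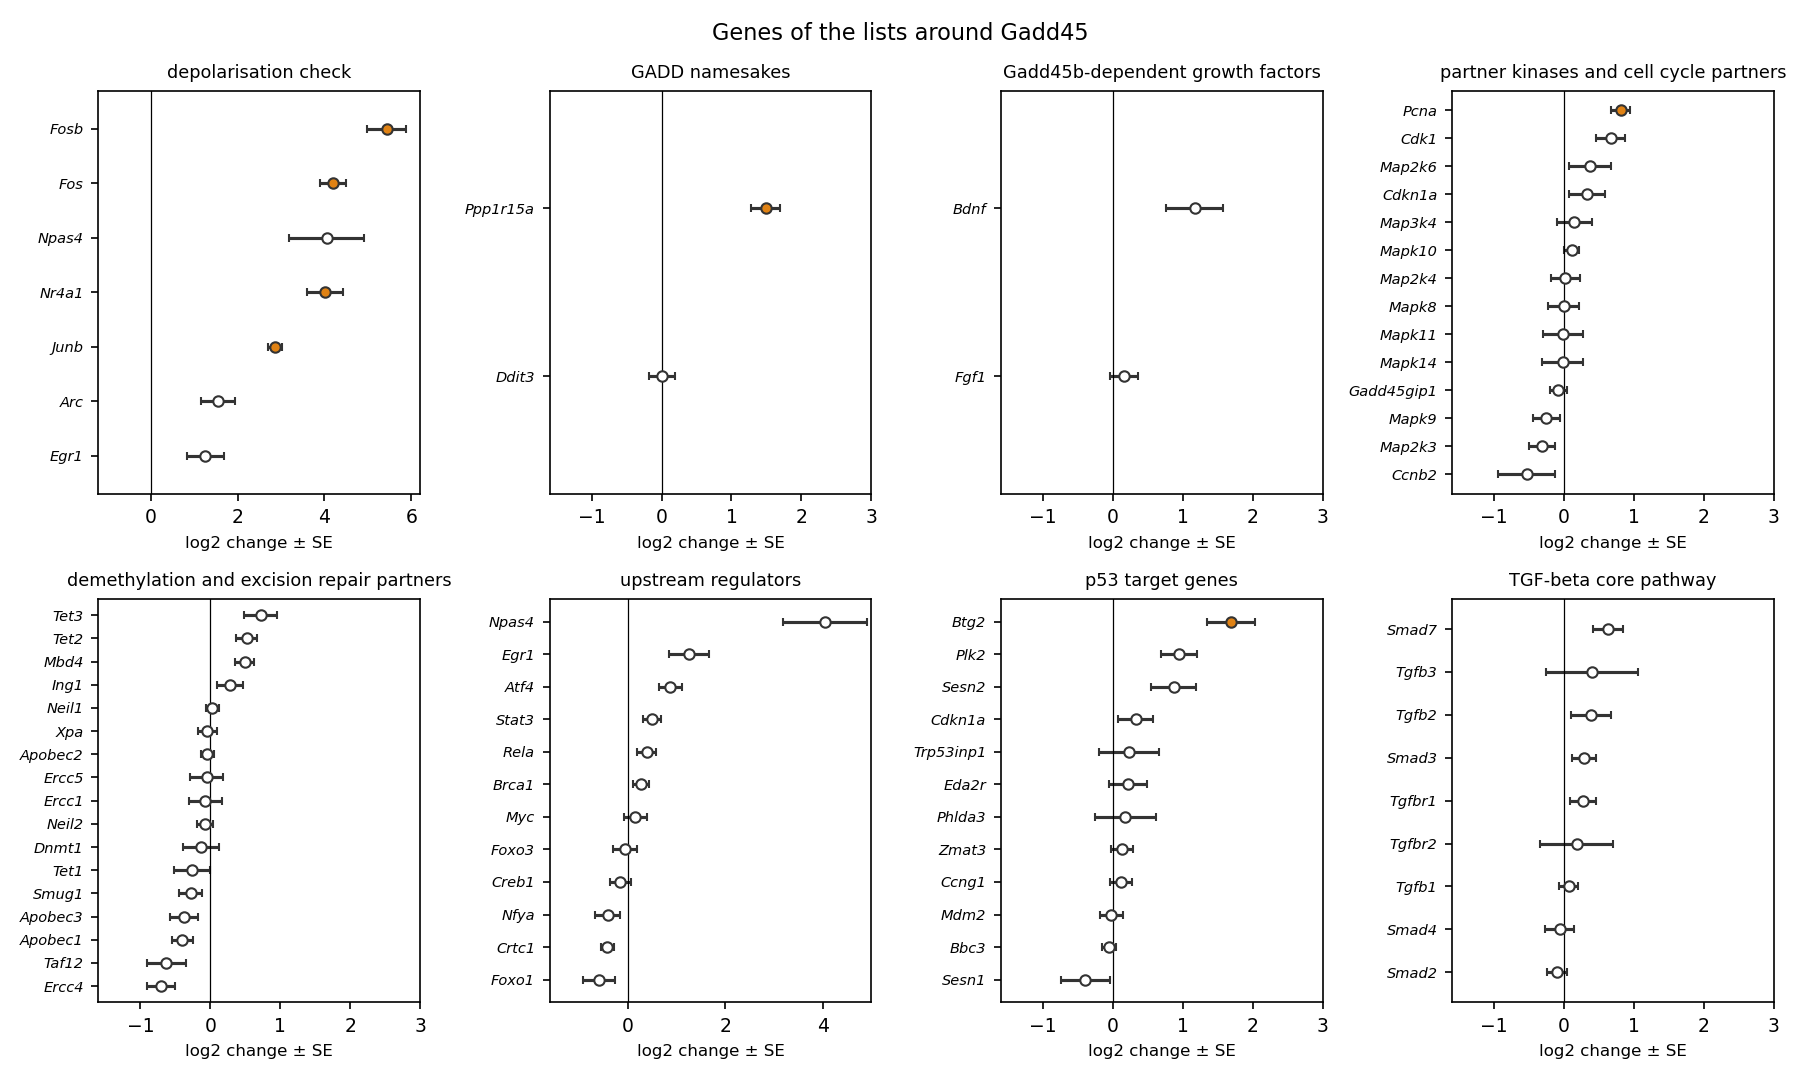
Log2 change after KCl with its SE (horizontal axes) for each measured gene of 8 lists (vertical axes); orange points passed an adjusted p of 0.05 over all 22181 rows. The orange points are Fosb, Fos, Nr4a1, Junb, Ppp1r15a, Pcna and Btg2; the axes of the depolarisation check and of the upstream regulators are wider than the others.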

How the data were processed

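RNA of 8 cultures was labelled with the Affymetrix WT Plus kit and measured on 1 array each, per the labels' protocols. The authors deposited 1 log2 value for each probe set and array. The submitters' processing notes name RMA and Partek, without versions or settings. A batch adjustment is not stated there. RMA compresses differences near background, so folds of dim probe sets are understated, and signal over background was not assessed. The number of arrays limits the precision.

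Gene symbols came from the platform annotation: 23521 probe sets carried 1 symbol, 1814 several and 9137 none. For 1082 genes with several probe sets the brightest was used, which left 22180 genes, plus the probe set shared by Gadd45a. Of these genes, 21994 had an identifier in the RefSeq table of GRCm38.p6. Groups came from sample titles. KCl and untreated arrays were contrasted in R 4.3.3 with limma 3.58.1 (lmFit, eBayes, two-sided, Benjamini-Hochberg over 22181 rows, threshold 0.05), and single values by exact permutation. The fits were tested on simulated data. Figures used matplotlib 3.10.9.

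Replicate numbers were taken to pair the arrays because the deviations of same-numbered arrays from their group means correlated across genes at 0.64, 0.23, 0.41 and 0.37, and all 8 arrays correlated best with their own number; the mouse numbers all differ, and no litter or day is given in the labels. The members, lists, tests and alternatives were chosen with earlier results of these data known. The genes named are the 3 members, all of the short lists, the called members of the other lists or up to 3 with the smallest p, and the 5 genes nearest in pattern to Gadd45b and to Gadd45g.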

Additional observations from a re-analysis of the deposited data

Results flagged for a closer look

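The untreated Gadd45b value of replicate 1, 7.54, stood apart from the other 3 untreated arrays (5.95 to 6.21): its gap to the nearest of them was 0.838 of the group's range, above Dixon's 95% critical value for 4 samples. Of 9 groups of 4 values tested in this way, for 3 probe sets in untreated arrays, KCl arrays and pair differences, this was the only such case. Chance alone gives about 1 in 20 for each group tested, so a case among 9 groups is less rare than that. Without untreated replicate 1 the log2 change of Gadd45b was 2.63 (limma adjusted p = 0.0053).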

How the results depend on the processing

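The log2 change of Gadd45g passed in all 18 alternative fits (3.11 to 3.59 with single arrays left out), and that of the shared Gadd45a probe set in none (0.17 to 0.39). Gadd45b was past the threshold in 13 of 18 and was not in 5 fits with single arrays left out (range over all 8 such fits 2.04 to 2.63). With the replicate block 539 genes were called higher and 446 lower, against 297 and 227 without it, and no call of a Gadd45 probe set changed. Single arrays left out gave 118 to 254 higher and 68 to 247 lower, and trended and robust eBayes gave 150 lower; the cause was not tested. The Gadd45g change exceeded that of Gadd45b by 0.90 to 1.19 and that of the shared probe set by 2.81 to 3.40 with single arrays left out, and Gadd45b exceeded the shared probe set by 1.66 to 2.43. Over pairs, with the replicate block, the first 2 differences were 1.04 and 3.03 (exact sign-flip p = 0.125), and without both arrays numbered 1 they were 1.06 and 3.18 (exact p = 0.10); neither design can reach the threshold. The median log2 change over all genes was -0.011, and 0.022 with arrays centred on their medians. Counts of the p53 targets moved in 9 of 10 alternatives, of the partner kinases in 6, of the upstream regulators in 4, of the demethylation partners in 2 and of the growth factors in 1.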
